A study of Mus musculus with 12 samples.

Results

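Rab GTPases are the largest branch of the Ras superfamily, small switch proteins that mark intracellular membranes. The Rab genes of the mouse were taken as all protein-coding genes of GRCm38 whose symbol is Rab, a number and at most 1 letter, which gave 59 genes of 21900. Chromatin accessibility at these genes was followed by ATAC-seq, in which a transposase cuts open DNA, through 6 deposited peak lists. The lists were merged into 16028 regions, and a region belonged to a Rab gene if it overlapped that gene, or if that gene was the nearest protein-coding gene within 50 kb. This gave 60 regions at 47 of the 59 genes, out of 14813 regions with any protein-coding gene within 50 kb. Of all protein-coding genes, 52.6% had a region.

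The cells were ER-Hoxa9-Lys-GFP cells of the C57BL/6 strain, a cultured murine myeloid line in which Hoxa9, a homeobox factor that blocks differentiation, is fused to the estrogen receptor and therefore depends on estradiol (E2). They carry a GFP reporter for lysozyme, and all groups grew in serum with medium conditioned for stem cell factor. The 6 groups of 2 libraries were cells kept in E2, cells without E2 for 120 h, and cells without E2 for 24, 40, 56 or 72 h that then had E2 back for 96, 80, 64 or 48 h. A longer time without E2 therefore always came with a shorter time of add-back. Lists are named below by their hours without E2. As 1 list stood for both libraries of a group, there were no replicate values, and all comparisons describe lists, with no test between conditions. A list comes from many cells, so a region open in fewer cells and a region less open in each cell cannot be told apart. The myeloid label was checked at 12 marker genes. All 6 progenitor genes (Cd34, Kit, Flt3, Mpo, Spi1 and Cebpa) had regions, with 1 each at Kit and Mpo. Gata1 and Cd3e had none, but Klf1, Pax5, Cpa3 and Gata2 also had 1 each. As 52.6% of all protein-coding genes had a region, having 1 does not settle the label.

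Rabs cycle between a GDP-bound form held in the cytosol by GDI and a GTP-bound form on a membrane, where they recruit effectors that move, tether and fuse vesicles. Guanine nucleotide exchange factors (GEFs) switch them on and GTPase-activating proteins (GAPs) switch them off. In neutrophils and their precursors, Rab27a is known for docking and release of granules, Rab5 and Rab7 for the steps by which a phagosome matures, and Rab11 for return of receptors to the surface.

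The start sites of 6 Rab genes frame the results, and the 300 bases around each start site (250 before, 50 after) are shown from RefSeq on GRCm38. Among the 48 Rab genes with a RefSeq promoter, 5 had a start site in a peak in continuous E2 and in none at 120 h. These were Rab27a, Rab29, Rab39, Rab9 and Rab11a. Another 24 had a start site in a region called in both lists. Of all 27025 genes with a promoter, 2090 had one in a region called in continuous E2 but not at 120 h. For 5463 it lay in a region called in both. The start site of Rab5a lay in a peak in each list. Start sites of 11 members could not be placed, among them Rab36 and Rab38, which had lost boundary regions. Capitals mark the letters searched for and named with the promoter motifs further on.
Rab27a promoter, chr9:73044560-73044859, plus strand: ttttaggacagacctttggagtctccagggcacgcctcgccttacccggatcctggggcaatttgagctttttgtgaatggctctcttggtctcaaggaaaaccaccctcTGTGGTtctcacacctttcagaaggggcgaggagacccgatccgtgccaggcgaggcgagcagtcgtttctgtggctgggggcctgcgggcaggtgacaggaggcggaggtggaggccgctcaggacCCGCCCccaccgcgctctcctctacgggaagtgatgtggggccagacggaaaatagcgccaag
Rab29 promoter, chr1:131867027-131867326, plus strand: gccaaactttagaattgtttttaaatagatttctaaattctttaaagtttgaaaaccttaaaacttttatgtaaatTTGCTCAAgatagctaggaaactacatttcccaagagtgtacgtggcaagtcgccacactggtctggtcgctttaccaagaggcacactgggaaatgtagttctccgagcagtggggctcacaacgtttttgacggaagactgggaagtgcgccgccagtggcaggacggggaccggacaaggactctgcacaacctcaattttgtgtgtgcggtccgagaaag
Rab39 promoter, chr9:53706183-53706482, minus strand: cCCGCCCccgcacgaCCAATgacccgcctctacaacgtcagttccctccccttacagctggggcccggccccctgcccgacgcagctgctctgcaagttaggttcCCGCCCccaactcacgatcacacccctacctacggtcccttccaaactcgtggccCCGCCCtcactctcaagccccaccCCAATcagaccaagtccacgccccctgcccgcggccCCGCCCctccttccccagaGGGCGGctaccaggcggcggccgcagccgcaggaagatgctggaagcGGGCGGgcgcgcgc
Rab9 promoter, chrX:166479818-166480117, minus strand: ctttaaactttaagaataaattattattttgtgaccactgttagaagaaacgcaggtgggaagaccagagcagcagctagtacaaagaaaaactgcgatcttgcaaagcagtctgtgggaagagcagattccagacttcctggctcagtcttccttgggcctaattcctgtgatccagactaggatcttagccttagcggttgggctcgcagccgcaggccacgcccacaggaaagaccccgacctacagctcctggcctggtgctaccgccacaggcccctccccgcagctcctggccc
Rab11a promoter, chr9:64737707-64738006, minus strand: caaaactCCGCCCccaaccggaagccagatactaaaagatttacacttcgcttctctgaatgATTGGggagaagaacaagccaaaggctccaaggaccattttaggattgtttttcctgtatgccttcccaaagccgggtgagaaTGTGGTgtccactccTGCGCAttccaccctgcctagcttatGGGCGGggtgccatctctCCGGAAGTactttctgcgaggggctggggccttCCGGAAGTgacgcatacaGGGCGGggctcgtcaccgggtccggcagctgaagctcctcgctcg
Rab5a promoter, chr17:53478984-53479283, plus strand: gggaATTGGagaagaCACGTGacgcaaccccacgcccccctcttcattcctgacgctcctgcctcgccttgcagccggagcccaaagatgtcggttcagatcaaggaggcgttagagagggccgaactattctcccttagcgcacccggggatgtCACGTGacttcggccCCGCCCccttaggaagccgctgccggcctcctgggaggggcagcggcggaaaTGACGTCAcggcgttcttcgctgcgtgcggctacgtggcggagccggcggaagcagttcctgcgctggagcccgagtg

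Of the 60 Rab regions, 32 were called both in continuous E2 and at 120 h (kept), 20 in continuous E2 but not at 120 h (lost), 5 at 120 h but not in continuous E2 (gained) and 3 in neither of these lists. Some Rabs of the secretory and recycling routes, such as Rab1a, Rab6a, Rab10 and Rab14, kept their start-site regions in all 6 lists. So did the early endosome Rabs Rab5a, Rab5b and Rab5c. Other kept regions of the same routes were missing from some lists, as at Rab2a, Rab8b and Rab12. Lost regions included those over the start sites of Rab27a, Rab29, Rab39, Rab9 and Rab11a. Gained regions lay inside Rab27a and Rab37, both granule Rabs, and beside Rab8a.

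Of the 52 Rab regions called in continuous E2, 38.5% were lost (95% Wilson interval 26.5 to 52.0), against 48.7% of all regions called there. Of the 37 Rab regions called at 120 h, 13.5% were gained (5.91 to 28.0), against 17.6% of all regions. Both intervals include the share over all regions. The intervals cover counting over regions only, and regions of 1 gene share their source. With each list shortened to its 7987 widest peaks, there were 7 lost and 11 gained Rab regions. This setting removes the narrowest of the 13165 peaks in continuous E2 and none of the 7987 at 120 h. By construction it therefore pushes lost counts down and gained counts up. The balance of both thus depends on which peaks each list keeps. The 26 Rab regions called in all 6 lists made up 43.3% of the Rab regions, against 34.5% of all regions.

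The Rab regions called numbered 52 in continuous E2, 44, 39, 35 and 40 at 24, 40, 56 and 72 h, and 37 at 120 h. As shares of the 60 regions these were 86.7%, 73.3%, 65.0%, 58.3%, 66.7% and 61.7%. The shares over all regions were 82.6%, 72.5%, 63.6%, 57.8%, 61.6% and 51.4% in the same order. Rab regions were thus fewest at 56 h, at 35 against 37 at 120 h, while over all regions the 120 h list held the fewest. This order differed with list length. With every list shortened to its 7987 widest peaks, Rab regions numbered 33, 31, 35, 32, 37 and 37, fewest at 24 h and most at 72 and 120 h. No such counts over all regions are given here, so this order is not shown to be particular to Rab genes. Counted by gene, 44 of the 47 Rab genes with a region had a peak in continuous E2, then 39, 37, 34 and 38, and 32 at 120 h. Of all 11515 genes with a region, 10267, 9689, 9109, 8654, 9042 and 7701 did in the same order.

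**Figure D1:**
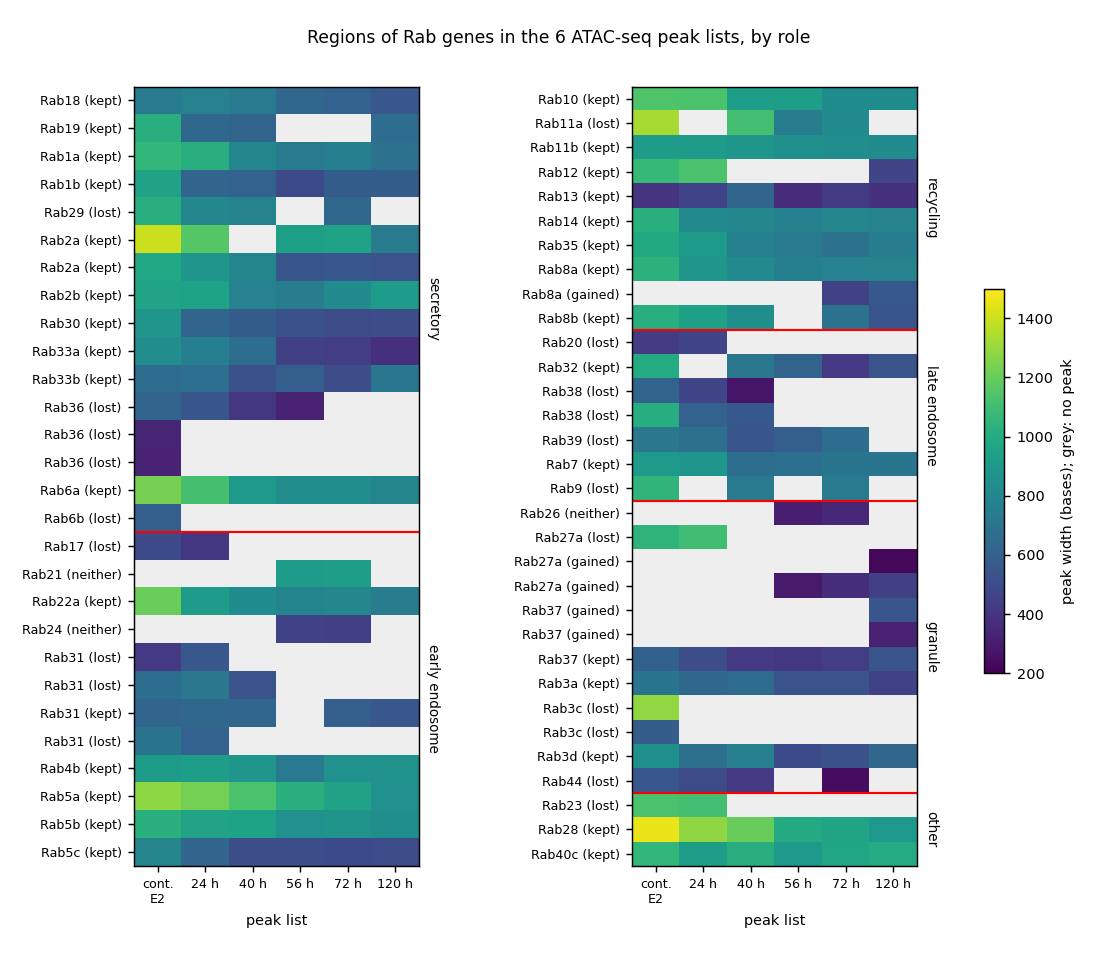
Peak width in bases (colour) of the 60 Rab regions in each of the 6 lists, 1 row per region, ordered by role and gene, with grey where the list held no peak; the class of the region is in brackets. The 26 regions called in all 6 lists are coloured throughout, and the gained regions of Rab27a and Rab37 are coloured at the right edge.

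Position was counted next. Of the 60 regions, 40 lay within 1 kb of the start or end of the Rab gene, here called a gene boundary. That was 66.7%, against 53.5% of all regions for their own genes. At boundaries, 9 of 38 regions called in continuous E2 were lost (23.7%, interval 13.0 to 39.2), against 29.5% of all boundary regions. Away from boundaries 11 of 14 were lost (78.6%, interval 52.4 to 92.4), against 73.5% of all such regions. None of the 29 boundary regions called at 120 h was gained, where 9.89% of all boundary regions were; the upper Wilson bound for the Rab regions was 11.7%. All 5 gained Rab regions lay away from boundaries, 5 of 8 called there at 120 h (62.5%, interval 30.6 to 86.3), against 36.3% of all such regions. Each of these 4 intervals includes the share over all regions of the same position.

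**Figure D2:**
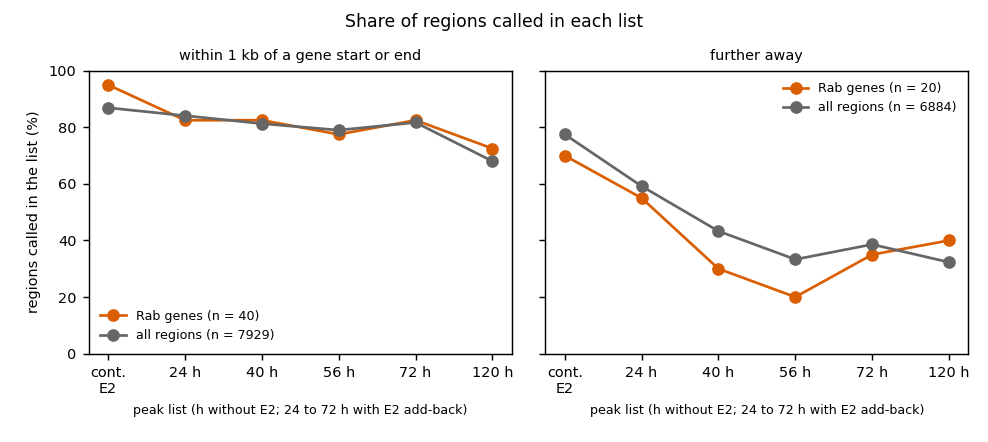
Percent of regions called in each list for Rab regions and for all regions with a gene within 50 kb, at gene boundaries (left, 40 Rab regions) and further away (right, 20). Boundary regions of Rab genes go from 38 of 40 in continuous E2 to 29 of 40 at 120 h, and the others from 14 of 20 to 4 at 56 h and 8 at 120 h.

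Rabs of the endoplasmic reticulum, Golgi and early secretory route had 16 regions at 13 of 15 genes, with 11 kept and 5 lost. Rab1a and Rab1b, which act between endoplasmic reticulum and Golgi, were called at their start sites in all lists. The Rab1a peak was 1060, 1017, 796, 736, 763 and 689 bases wide from continuous E2 to 120 h, and that of Rab1b 949, 624, 611, 492, 584 and 582. Both were widest in continuous E2 and narrower in each other list. Rab6a, a Golgi Rab, had peaks of 1232, 1117, 905, 838, 837 and 798 bases, in a region that also overlaps Mrpl48.

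Rab2a, which acts at the Golgi and in lysosome traffic, had a boundary region with widths of 1394, 1155, 938, 948 and 742 bases in continuous E2 and at 24, 56, 72 and 120 h, and no peak at 40 h. This was the widest Rab peak missing from a single list. A further Rab2a region 39406 bases from the gene was called in each list, at 979, 882, 795, 547, 553 and 531 bases. Rab2b, Rab18, Rab30, Rab33a and Rab33b had 1 region each, called in all 6 lists, while the region of Rab19, 491 bases outside the gene, was called in 4 lists and absent at 56 and 72 h.

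Among the lost secretory regions, that over the start site of Rab29 (chromosome 1, 131866870 to 131867889) had widths of 1020, 801 and 783 bases in continuous E2 and at 24 and 40 h, none at 56 h, 634 at 72 h and none at 120 h. Rab29 acts at the Golgi and on stressed lysosomes. Its calls went off, on and off again along the lists ordered by time without E2. Rab36, linked to the Golgi and to positioning of late endosomes, had 3 lost regions. That at its lower-coordinate boundary was 621, 547, 412 and 331 bases wide up to 56 h and absent from 72 h on, and the other 2 were called in continuous E2 alone, at 338 and 328 bases. Rab6b, the form of Rab6 best known from neurons, had 1 lost region of 594 bases, 27398 bases downstream of its start site, called in continuous E2 alone.

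Early endosome Rabs had 12 regions at 9 of 10 genes, with 6 kept, 4 lost and 2 in neither end point. Rab5a, Rab5b and Rab5c direct fusion of early endosomes and early phagosomes. The Rab5a peak measured 1277, 1229, 1134, 1026, 950 and 860 bases from continuous E2 to 120 h, narrower in each list of that order. The Rab5b peak measured 1025, 957, 952, 860, 875 and 847 bases and that of Rab5c 794, 622, 511, 510, 492 and 498. All 3 paralogs were therefore called throughout, with Rab5a the widest in every list. Rab22a and Rab4b, which act in sorting and fast recycling, were also called in all lists. The Rab22a peak measured 1207, 914, 831, 789, 802 and 747 bases, and that of Rab4b went from 906 bases in continuous E2 to 863 at 120 h.

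Rab31, which acts between Golgi and endosomes and on phagosomes, had the most regions of any Rab gene, 4 regions inside a gene of 121027 bases and none at its boundaries. The region 34758 bases downstream of the start site was called at 702 bases in continuous E2 and 611 at 24 h, and then in no list. The region 97588 bases downstream followed the same pattern at 418 and 555 bases. The region 48144 bases downstream was called at 670, 713 and 539 bases up to 40 h. The region 42070 bases downstream was kept, at 624, 634, 630, 593 and 555 bases, with no peak at 56 h. All 4 were called in continuous E2 and at 24 h, and none at 56 h. Rab17, described mainly in epithelia, had a lost region outside the gene, called at 494 and 413 bases in continuous E2 and at 24 h.

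Rab21, which acts in integrin traffic, and Rab24, linked to autophagy, had start-site regions called at 56 and 72 h alone, at 913 and 927 bases for Rab21 and 455 and 444 for Rab24. The granule Rab Rab26 had a boundary region with the same pattern, at 310 and 348 bases. These 3 of 60 regions compare with 0.635% of all regions, and the pattern was singled out after its values were seen.

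Rabs of recycling and delivery to the plasma membrane had 10 regions at 9 of 11 genes, with 8 kept, 1 lost and 1 gained. Rab10, Rab11b, Rab13, Rab14, Rab35 and Rab8a kept start-site regions in all 6 lists. The Rab10 peak, at a gene for delivery of transporters to the surface, measured 1143, 1134, 925, 927, 834 and 832 bases. The Rab8a peak, at a gene for exocytosis toward the cell surface, measured 1037, 876, 824, 763, 776 and 779 bases. Rab8a also had a gained region 2320 bases outside the gene (chromosome 8, 72183686 to 72184280), called at 458 bases at 72 h and 557 at 120 h. Its paralog Rab8b was called at 1019, 944, 849, 685 and 540 bases, with no peak at 56 h.

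Rab11a, the recycling endosome Rab, had a start-site region (chromosome 9, 64736830 to 64738268) of 1331 bases in continuous E2, with no peak at 24 h, 1113, 748 and 827 bases at 40, 56 and 72 h, and none at 120 h. Its paralog Rab11b was called in every list, at 914, 911, 877, 850, 835 and 825 bases. The pair thus differed in calls at 24 and 120 h. Rab12, which acts in degradation of receptors, was called at 1070 and 1131 bases in continuous E2 and at 24 h, in none of the lists of 40, 56 and 72 h, and at 472 bases at 120 h. It was the only kept Rab region absent from 3 lists.

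Rabs of late endosomes, lysosomes and phagosomes had 7 regions at 6 of 10 genes, with 5 lost and 2 kept. Rab7, which controls fusion with lysosomes, was the only gene of this group called in all 6 lists, at 900, 881, 668, 678, 703 and 703 bases. Rab32, which acts in the biogenesis of lysosome-related organelles, was called at 999, 716, 612, 417 and 533 bases, with no peak at 24 h. Rab38, its close relative in melanosome and lamellar body formation, had a boundary region of 1009, 610 and 558 bases and a second region 5872 bases outside the gene of 617, 473 and 274 bases, both up to 40 h only. Both genes were thus called in continuous E2 and at 40 h, Rab38 without Rab32 at 24 h, and Rab32 without Rab38 from 56 h on.

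Rab9, which returns receptors from late endosomes to the Golgi, had a start-site region (chromosome X, 166479117 to 166480167) called at 1051 bases in continuous E2, 742 at 40 h and 738 at 72 h, and absent at 24, 56 and 120 h. Rab39, linked to phagosome acidification and autophagy, was called at its start site in 5 lists, at 717, 678, 546, 595 and 671 bases, and not at 120 h. Rab20, known from phagosomes of macrophages, had no start-site region and 1 lost region 14306 bases downstream of it, at 426 and 470 bases in continuous E2 and at 24 h. Of 7 late endosome regions called in continuous E2, 71.4% were lost (interval 35.9 to 91.8). The share over all regions, 48.7%, lies inside this interval. Of these 7, 5 lay at boundaries, where 29.5% of all regions called in continuous E2 were lost, a share below the interval. Lost shares were 31.2% (14.2 to 55.6) for secretory, 40.0% (16.8 to 68.7) for early endosome and 11.1% (1.99 to 43.5) for recycling Rabs. Among role classes, only the recycling interval leaves out 48.7%. It includes 29.5%, and 9 of the 10 recycling regions lay at boundaries.

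Secretory granule Rabs had 12 regions at 7 of 9 genes, with 4 lost, 4 gained, 3 kept and 1 in neither end point. Rab27a, which docks granules at the plasma membrane, had a lost start-site region and 2 gained regions inside the gene. The start-site region (chromosome 9, 73044223 to 73045326) was called at 1045 bases in continuous E2 and 1103 at 24 h and in no later list. The region 25304 bases downstream of the nearer of its 2 start sites (73089452 to 73089973) was called at 295, 371 and 447 bases at 56, 72 and 120 h. The other, 21749 bases downstream of that site, was called at 227 bases at 120 h alone. No list held a Rab27a start-site peak together with a gained peak, and the list of 40 h held neither. The start site shown for Rab27a lies in the lost region, while its other start site, 73064148 on the same chromosome, had no peak in any list.

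Rab37, a Rab of secretory granules in mast cells and neutrophils, had 3 regions, all inside its gene. A kept region was called at 602, 509, 415, 412, 435 and 539 bases. A pair of gained regions was called at 120 h alone, at 542 and 332 bases. The wider of them also overlaps Cd300lf, an inhibitory receptor gene of myeloid cells, so it cannot be given to Rab37 alone. Of the 4 gained granule regions, 3 were called at 120 h alone, and the only gained Rab region outside this group was that of Rab8a.

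Rab3a and Rab3d, which prime granules for release, kept start-site regions in all lists, at 705, 633, 660, 540, 534 and 457 bases and at 852, 680, 764, 493, 523 and 629 bases. Rab3c, a neuronal form, had 2 lost regions called in continuous E2 alone, of 1288 bases outside the gene and of 581 bases at its end, 225040 bases from the start site. Rab44, a large Rab of granule-bearing immune cells, had 1 lost region 2152 bases outside the gene, called at 552, 497 and 417 bases up to 40 h, not at 56 h, and at 243 bases at 72 h. Together, granule regions called in continuous E2 were lost in 4 of 7 cases (57.1%, interval 25.0 to 84.2) and those called at 120 h were gained in 4 of 7 (57.1%, the same interval). Over all regions these shares were 48.7% and 17.6%, the first inside the interval and the second below it. All 4 gained granule regions lay away from boundaries, where 36.3% of all regions called at 120 h were gained. These gained granule regions come from 2 genes and are not independent.

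**Figure D3:**
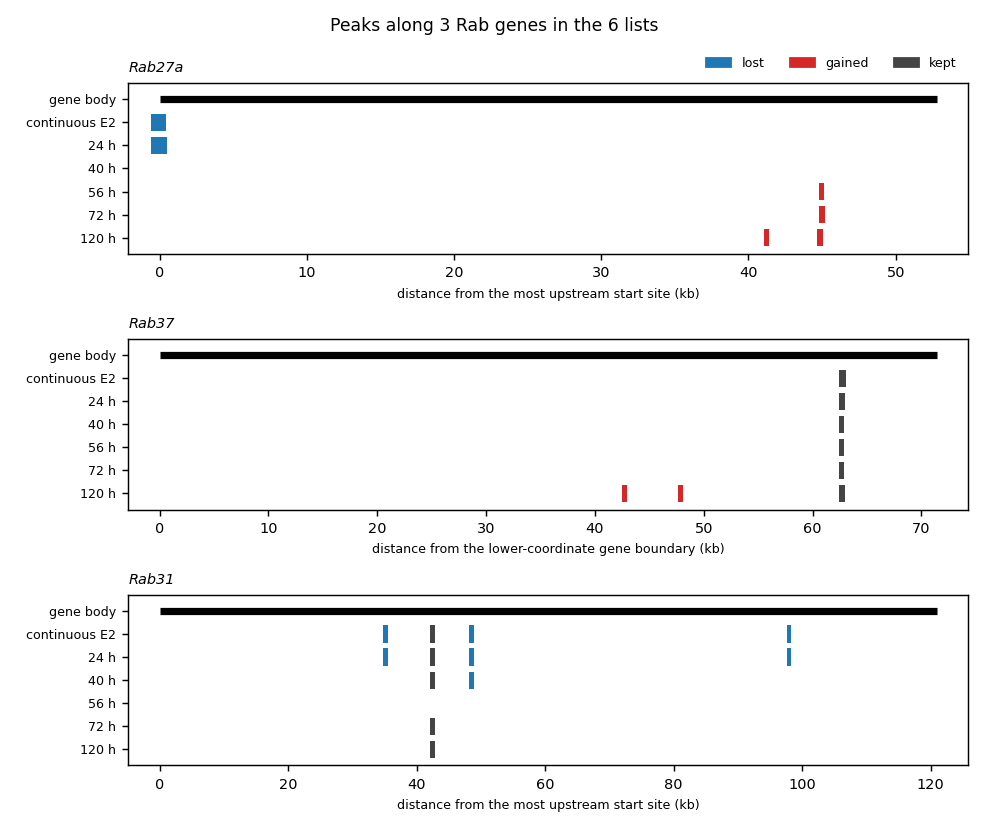
Peaks in each list along Rab27a, Rab31 and Rab37, as distance in kb from the most upstream start site, or for Rab37, whose strand was not given in the tables used here, from its lower-coordinate boundary; the narrowest peaks are drawn slightly widened. The lost Rab27a peak sits at 0 kb in continuous E2 and at 24 h, and its gained peaks lie inside the gene from 56 h on.

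Of the remaining genes, Rab23, a Rab of cilia and Hedgehog signalling, had 1 lost region 18011 bases downstream of a start site, of 1128 and 1111 bases in continuous E2 and at 24 h. Rab28, linked to cilia and the retina, had the widest Rab peak in continuous E2 and measured 1462, 1286, 1196, 993, 958 and 891 bases. Rab40c, part of a ubiquitin ligase, was called at 1063, 928, 1016, 897, 966 and 999 bases, nearly level across lists. No region was assigned to 12 members: Rab15, Rab25, Rab27b, Rab34, Rab39b, Rab3b, Rab40b, Rab42, Rab43, Rab4a, Rab7b and Rab9b. The region nearest to each of these lay 1182 bases (Rab40b) to 330208 bases (Rab27b) from the gene, with a median of 20372.5 bases, and 9 of the 12 had a region within 50 kb that belonged to another gene. Near relatives thus could differ in having a region at all, as Rab27a and Rab27b, Rab4b and Rab4a, Rab7 and Rab7b, Rab9 and Rab9b, Rab39 and Rab39b, and Rab40c and Rab40b did.

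Calls were then compared from list to list, in order of time without E2. The lists of 24 to 72 h come from cells that had E2 back, so this is not a time course of loss. Of the 20 lost regions, 13, 9, 3 and 5 were called at 24, 40, 56 and 72 h, and of the 5 gained regions 0, 0, 1 and 2 were. From continuous E2 to 24 h, 8 of 52 Rab regions dropped out (15.4%, against 21.3% of all regions) and none of the 44 called at 24 h was new, against 10.4%. From 24 to 40 h, 8 of 44 dropped out (18.2%, against 21.8%), among them the start-site regions of Rab27a and Rab12 and the boundary region of Rab2a, and 3 of 39 were new (7.69%, against 10.8%). Those 3, at Rab11a, Rab32 and Rab9, were regions also called in continuous E2.

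From 40 to 56 h, 9 of 39 dropped out (23.1%, against 19.6%), including both Rab38 regions, and 5 of 35 were new (14.3%, against 11.5%), including the first gained Rab27a region. From 56 to 72 h, 1 of 35 dropped out (2.86%, against 9.09%), the boundary region of Rab36, and 6 of 40 were new (15.0%, against 14.8%), 5 of them regions called at 40 h too. From 72 to 120 h, 8 of 40 dropped out (25.3% of all regions did), among them Rab11a, Rab39, Rab9 and Rab29, and 5 of 37 were new (13.5%, against 10.4%). Each of these shares rested on 0 to 9 Rab regions.

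A region was counted as switching once if its calls changed a single time from continuous E2 through the 4 add-back lists to 120 h. Among the 20 lost Rab regions 16 did, against 83.5% of all lost regions, and of the 5 gained regions all 5 did, against 86.3%. The 4 lost regions that did not were those of Rab29, Rab44, Rab11a and Rab9. Called in exactly 5 lists were 5 regions, at Rab2a, Rab31, Rab8b, Rab32 and Rab39, against 14.0% of all regions, and the missing list was that of 40, 56, 56, 24 and 120 h, respectively. The 3 regions in neither end point compare with 8.4% of all regions.

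Width was the only size the lists gave. In the 26 Rab regions of all lists, the median width was 955 bases in continuous E2, then 881.5, 784.5, 738 and 733, and 728 at 120 h. Over all 5106 such regions it went from 940 to 615 bases. The ratio of the 120 h width to that in continuous E2 had a median of 0.745 at Rab genes, from 0.454 at Rab33a to 1.06 at Rab33b, and a median of 0.669 over all regions. The Rab33a region also overlaps Aifm1 and lies 5168 bases upstream of the Rab33a start site in RefSeq. Of the 26 regions, 25 were narrower at 120 h, and Rab33b was wider; over all 5106 regions, 4987 were narrower. Those of Rab40c, Rab2b, Rab4b and Rab13 had ratios of 0.94, 0.952, 0.953 and 0.97.

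Lost boundary regions of Rab genes were about as wide in continuous E2 as kept ones, with medians of 1009 bases (328 to 1331, 9 regions) and 999 bases (396 to 1462, 29 regions). Over all boundary regions the medians were 889 and 977 bases. Away from boundaries, lost Rab regions had a median of 594 bases over 11 regions, against 660 for all such lost regions.

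**Figure D4:**
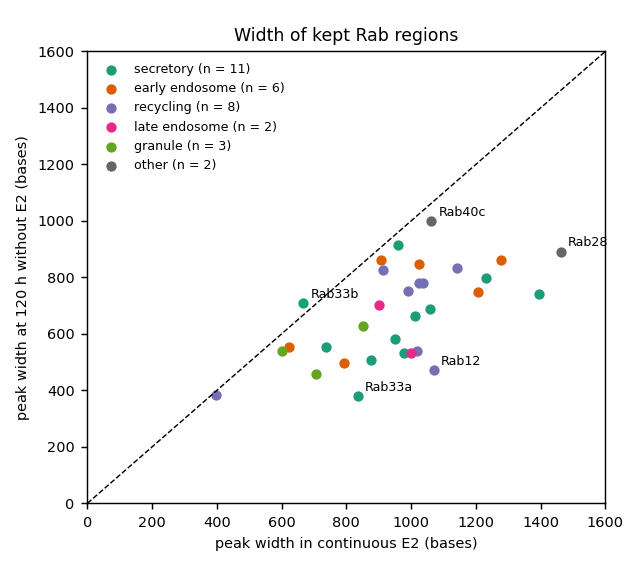
Peak width in bases in continuous E2 (horizontal) and at 120 h without E2 (vertical) for the 32 kept Rab regions, coloured by role, with the line of equal width dashed. All points but that of Rab33b lie below the line, and Rab12 and Rab33a lie furthest below for their width in continuous E2.

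RefSeq promoters of 300 bases were matched by symbol for 48 of the 59 genes, 60 promoters in all. Regions over a start site numbered 24 kept, 5 lost, 2 in neither end point and 0 gained. Counted by promoter, 26 of the 60 lay in kept and 5 in lost regions. Of all 32851 promoters, 6273 lay in kept and 2376 in lost regions. The 26 promoters in kept Rab regions had a median GC content of 64.2% and 25.5 CpG dinucleotides, and the 5 in lost regions had 56.3% and 16. Over all genes, promoters under kept and lost regions had 63.0% and 60.3% GC, with 24 and 19 CpG, and all 32851 promoters 52.7% and 7. The 27 Rab promoters with no region, of 19 genes, had a median of 11 CpG, with a range of 3 to 45.

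Motifs were searched as exact letters on both strands, where N is any base: GGGCGG (SP and KLF factors), CCAAT (NF-Y), TGTGGT (RUNX), TGCGCA (NRF1), CCGGAAGT (ETS), CACGTG (E-box), TGACGTCA (CRE), TTGCNNAA (C/EBP), TGANTCA (AP-1) and TGATTNAT (HOX with PBX). A match to TTGCNNAA can hold TGCGCA, and a match to TGATTNAT can hold TGANTCA. Other matches can overlap in part. GGGCGG was in 20 of 26 kept Rab promoters and 3 of 5 lost ones, against 35.7% of all promoters and 72.9% of those under kept regions. CCAAT was in 16 of 26 kept (61.5%) and 2 of 5 lost, against 37.4% and 43.1%. TGTGGT was in 4 of 26 and 2 of 5, at Rab27a and Rab11a, against 16.8% of all promoters, 10.9% under kept and 14.9% under lost regions. CACGTG, the core of the element bound by lysosome gene regulators such as TFEB, was in 1 of 26, that of Rab5a, and 0 of 5, against 7.15% of all promoters and 11.6% under kept regions. TGCGCA was in 6 of 26 (23.1%) and 1 of 5, against 7.76% of all promoters, 19.3% of those under kept regions and 10.2% of those under lost ones.

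In the sequences shown, the Rab27a promoter holds TGTGGT from base -140 and the reverse complement of GGGCGG from base -13, with base 0 the start site. The Rab11a promoter holds CCGGAAGT from bases -46 and -13, and it was the only lost Rab promoter with that string, against 3.89% of all promoters and 8.04% under lost regions. None of the 26 kept Rab promoters held it, against 11.7% under kept regions. The Rab39 promoter holds GGGCGG or its complement at 6 positions and CCAAT at 2. The Rab29 promoter holds TTGCNNAA from base -174 and no other string, against 10.8% of all promoters with it and 8.38% under lost regions. The Rab9 promoter holds none of the strings, and the Rab5a promoter holds TGACGTCA from base -28 and CACGTG at 2 positions. TGATTNAT was in none of the 60 Rab promoters, against 3.22% of all and 0.654% under kept regions. TGANTCA was in 3 of 60, all with no region, against 7.81% of all.

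Genes that regulate or bind Rabs were counted in the same way, from a list of 132 genes. Their 183 regions split into 82 lost, 8 gained, 81 kept and 12 in neither end point, so that 50.3% of those called in continuous E2 were lost (interval 42.7 to 57.9) and 8.99% of those called at 120 h were gained (4.63 to 16.7). Over all regions these shares were 48.7% and 17.6%, and the second lies above the interval. Taken apart, only the GAPs had a gained share, 2.86% (0.506 to 14.5), with an interval below 17.6%. The GEFs were at 15.4% (6.15 to 33.5), effectors at 8.0% (2.22 to 25.0) and GDI and prenylation genes at 25.0% (4.56 to 69.9). The 183 regions came from 104 genes and are not independent, which the intervals do not cover. GEFs had 27 lost, 4 gained and 22 kept regions, with Trappc9 at 5 lost and 2 kept, Rin3, a Rab5 family GEF, at 4 lost and none kept, and Dennd3, a Rab12 GEF, at 2 lost, 1 gained and 1 kept. Gained GEF regions also lay at Rabif and Dennd2d.

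GAPs had 32 lost, 1 gained and 34 kept regions. Usp6nl, a Rab5 GAP, had 6 lost and 1 kept, Tbc1d16 had 4 lost, Tbc1d1 had 2 lost and 1 kept, and the gained region lay at Tbc1d10b, a GAP of the family that acts on Rab27a and Rab35. GDI and prenylation genes had 4 lost, 1 gained and 3 kept regions, among them 1 lost and 1 kept at Gdi2, 1 lost and 1 gained at Rabggta, a subunit of the enzyme that attaches the lipid, and 1 lost at Rabac1. Effectors had 21 lost, 2 gained and 23 kept regions. Micall2 had 3 lost, Evi5 had 2 lost and 1 kept, and Rab11fip4, which binds Rab11, had 2 lost and both gained effector regions.

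Arf and Arl genes, a related family of GTPases that act in vesicle budding and traffic, were counted beside the Rab genes. They had 9 lost, 2 gained and 16 kept regions at 22 of 26 genes, a lost share of 36.0% (20.2 to 55.5). This interval overlaps that of the Rab genes, 26.5 to 52.0, and the difference between the families was not tested.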

How the data were processed

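The 12 libraries fell into 6 groups of 2, with 1 peak list per group that the labels of both libraries name. Each deposited list gives positions only, with no score or count, so depth is unknown and peak width was the only size. How libraries were combined, and whether they came from separate cultures, is not given in the sources used here. The submitters' processing notes name BWA, MACS2 2.0 and STAR 2.5 without roles, and the build mm9. Of the peaks, however, 52.4% to 69.6% lay at GRCm38 gene boundaries (1000 bases), against 7.84% to 8.27% after a shift of 200000 bases, so GRCm38 was used.

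Exact duplicates (115 to 2530 per list, none outside chromosomes 18 and 19) and intervals over 10000 bases (1 to 16 per list) were removed and overlapping rows merged, which left 7987 to 13165 peaks. Positions were made 1-based. Peaks sharing 1 base or more formed a region, which counted for each protein-coding gene it overlapped, or else for the nearest within 50000 bases. Start sites and strands came from RefSeq promoters, which 11 members lack. Shares have 95% Wilson intervals that cover counting error over regions only.

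The members, role classes and gene lists were chosen with earlier results of these data known. Widths in all lists were planned for members with a lost or gained region or with 2 or more regions, and for the 2 widest kept regions per role. Other kept members were added. Up to 3 pathway genes per list and direction were named, by number of regions. A marker gene and a comparison family are not reported here. Cleaning, union, classes and assignment were tested on simulated data. Tools were Python 3.11.15 with numpy 2.4.6 and pandas 2.3.3, scipy 1.17.1 for intervals, and matplotlib 3.10.9.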

Additional observations from a re-analysis of the deposited data

How the results depend on the processing

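No paired analysis was possible because each group has a single list, and leaving out a library was not possible either. Under 50% reciprocal overlap, assignment within 20 or 100 kb or to the gene body and 1 kb around it, and without chromosomes 18 and 19, every count of Rab regions and genes stayed within 1.5 times its value. The same held when the 7 regions shared with another gene were left out, a setting chosen after seeing the data. The shared regions were those of Rab2b, Rab5b, Rab6a, Rab13, Rab24 and Rab33a and the wider gained region of Rab37.

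List length and peak width mattered more. With every list shortened to its 7987 widest peaks, lost Rab regions numbered 7 in place of 20, gained ones 11 in place of 5 and kept ones 26 in place of 32. The Rab regions called from continuous E2 to 120 h then numbered 33, 31, 35, 32, 37 and 37. With only the wider peaks, those that reach the median width within a list, there were 12 lost, 1 gained and 19 kept regions, and 14 were called in all 6 lists. In that setting 31, 23, 22, 20, 23 and 20 Rab regions were called from continuous E2 to 120 h, and 22, 22, 20, 23 and 20 Rab genes had a region from 24 h on. Both settings remove peaks by construction, and the shortening to equal length removes none from the 120 h list. Whether Rab regions are more often lost or gained thus depends on which peaks each list keeps. With a boundary window of 2500 bases, 1 gained region, in place of 0, lay at a boundary. Depth was not given, so a region missing from a list was not called there and is not shown to be closed.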

Other observations

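Intervals over 10000 bases, used in no comparison, covered 3 Rab genes on chromosomes 18 and 19. Those over Rab18 and over Rab27b each numbered 2 in continuous E2, 4 at 24 h and 1 at 40 and at 56 h, and those over Rab1b numbered 2 in continuous E2 and 2 at 24 h. Rab27b had no region once they were removed.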
